A study of Mus musculus with 6 samples.

Results

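The translation factor genes described here are the mouse genes whose symbols begin with Eif1 to Eif6, Eef1 or Eef2, which encode the initiation and elongation factors of cytosolic protein synthesis, their paralogues, and enzymes and binding proteins named after them. Genes were taken by symbol, leaving out the sex-linked Eif2s3x, Eif2s3y and Eif1ax and the names marked as pseudogenes, which gave 87 genes of the 49203 gene names in the tables. The values come from total RNA sequencing of mouse Sertoli cell lines, Sertoli cells being the somatic cells of the seminiferous tubule that support germ cells. Libraries 2, 4 and 7 came from lines in which a GFP reporter linked to the Y chromosome was expressed (GFP-positive, phenotype given as green), and libraries 9, 11 and M from lines without its expression (GFP-negative, given as non-green). No strain, age, treatment, clone structure or further allele is given in the labels. They also do not say whether a group's libraries are from different cultures or mice, and p-values then reflect the spread among these libraries alone, which may be technical.

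Protein synthesis begins when the small ribosomal subunit, held open by eIF1, eIF1A and the large scaffold eIF3, receives the initiator tRNA from GTP-bound eIF2 and is brought to the capped end of an mRNA by eIF4E, eIF4G and eIF4A. eIF5 and eIF5B act at the start codon, where the large subunit joins. In elongation, eEF1A delivers each aminoacyl-tRNA, the eEF1B proteins recharge eEF1A with GTP, and eEF2 moves the ribosome by a codon. Control acts mostly on eIF2, through 4 kinases that respond to different stresses, on eIF4E, through binding proteins that mTORC1 releases, and on eEF2, through its own kinase.

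Levels are given as scaled FPKM, the authors' fragments per kilobase of transcript relative to library depth, summed over the named transcripts of a gene and scaled between libraries by the median of ratios. Values of a gene are listed in the order 2, 4 and 7 for GFP-positive and 9, 11 and M for GFP-negative libraries. A log2 difference is GFP-positive minus GFP-negative on log2(scaled FPKM + 0.5), and a gene is called when the Benjamini-Hochberg adjusted p of limma's moderated test over all 18921 tested features is under 0.05. The sum over a gene's transcripts passed the filter of a mean of 0.5 in 62 of the 87 genes, and only those were tested. Depth, as aligned bases, was 11.2, 11.8 and 11.3 Gb for GFP-positive libraries, against 10.02, 9.67 and 8.25 Gb for GFP-negative ones.

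Of the 62 tested genes, 7 rose, 7 fell and 48 were not called, so 22.6% were called against 20.4% of all tested features. In the upward direction this was 11.3% of the genes against a background of 11.9%, and in the downward direction 11.3% against 8.55%. The groups did not overlap for 32 of the 62 genes, 15 with GFP-positive on top and 17 with GFP-negative on top, a share of 51.6% against 43.2% of all features. Their median log2 difference was 0.13, against 0.014 over all features. The translation factor genes as a class were therefore called about as often as other features, and the differences lay between their members. Genes with Eif symbols, counting the eIF2 kinases, the eIF4E inhibitors and Eif4a3, had 6 rises and 6 falls among 50 tested. Genes with Eef symbols, counting modifying enzymes and Eef1e1, had 1 rise and 1 fall among 12.

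The genes that rose were Eif1b, the eIF3 subunit genes Eif3k, Eif3i, Eif3e, Eif3m and Eif3l, and Eef1e1. Those that fell were Eef2, the scaffold genes Eif4g1 and Eif4g3, the eIF4E inhibitor gene Eif4ebp2, the subunit-joining gene Eif5b, and the eIF2 kinase genes Eif2ak1 and Eif2ak3. Mean levels were 71.6 ± 8.94 scaled FPKM in GFP-positive libraries for Eif1b, against 19.4 ± 5.71 in GFP-negative ones (SD, n = 3 each), a ratio of 3.70. For Eef2 they were 96.4 ± 21.3 scaled FPKM in GFP-positive libraries, against 526 ± 283 in GFP-negative ones (SD, n = 3 each), a ratio of 0.184. Which genes were called depends on the libraries included. Without GFP-positive 7, or without GFP-negative M, limma called none of the 62 genes, although 19 had an unadjusted p under 0.05 in each of these fits, where 0.207% and 0.195% of all features were called. Without GFP-positive 2, 3 genes rose and 2 fell (7.61% and 2.75% of all features). Without GFP-positive 4, 5 rose and 1 fell (6% and 3.14%), and without GFP-negative 11, 4 rose and 3 fell (5.61% and 3.05%). Without GFP-negative 9, 11 rose and 13 fell (15.7% and 14.9%), and all 14 calls remained.

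**Figure D1:**
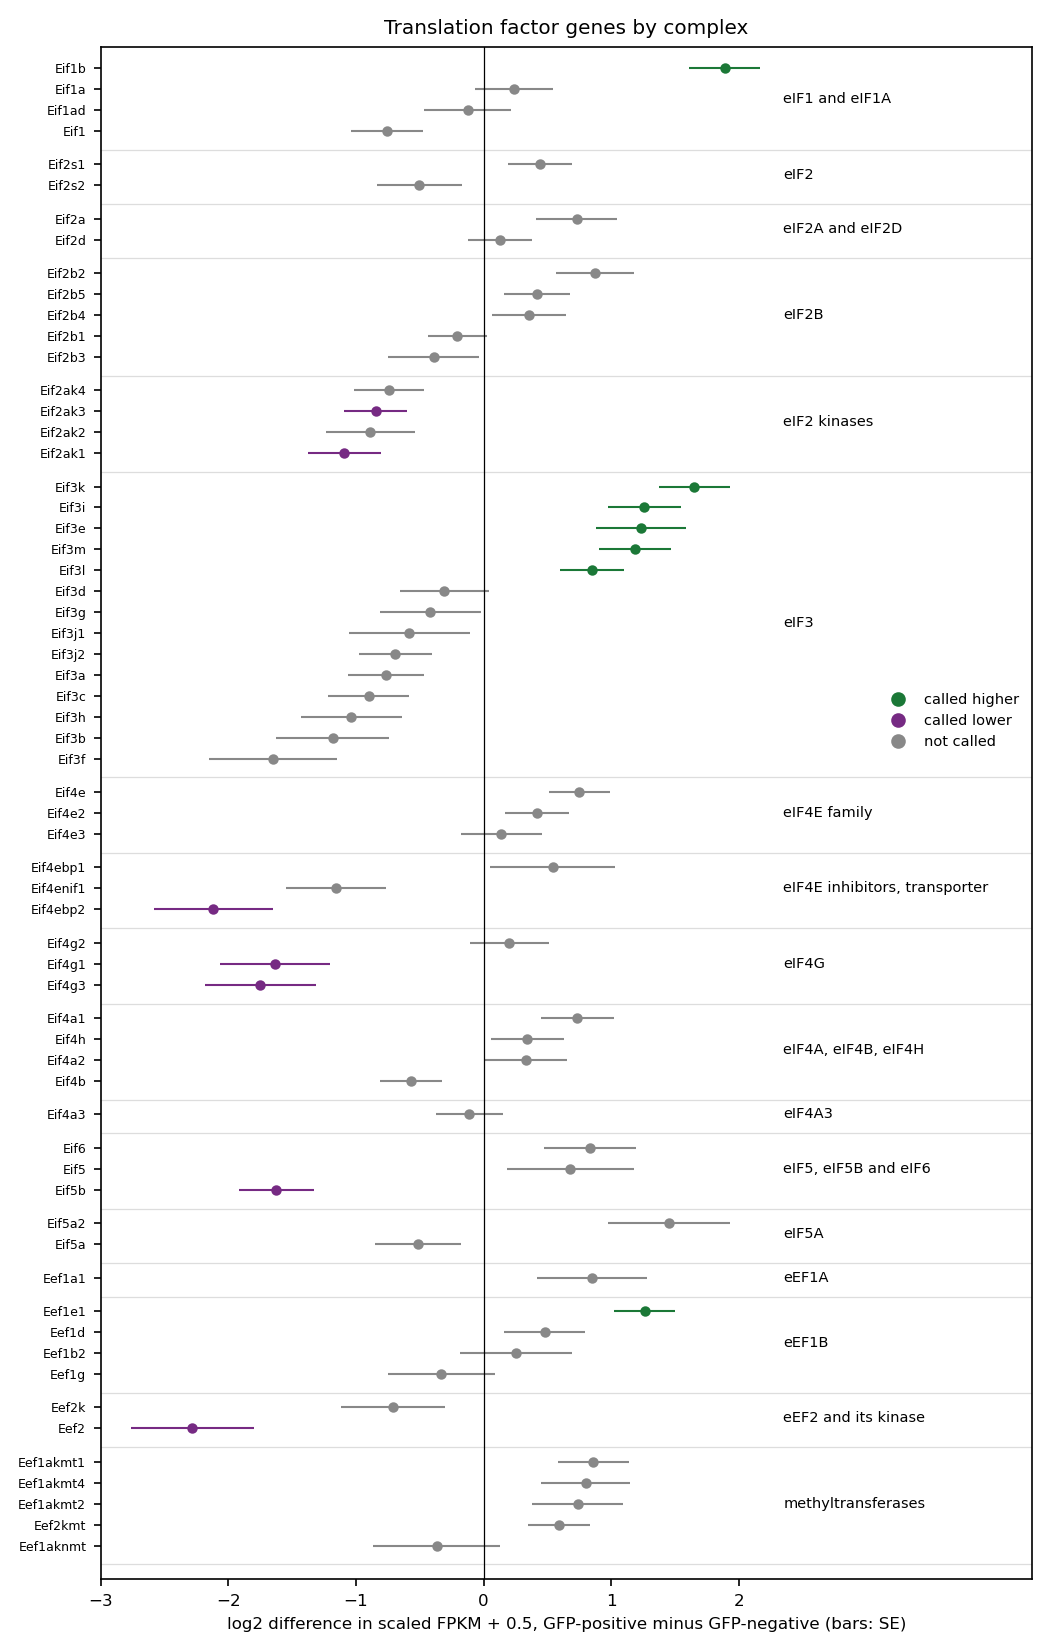
Log2 difference (GFP-positive minus GFP-negative, in scaled FPKM + 0.5) of each of the 62 tested translation factor genes, grouped by factor complex, with horizontal bars for the standard error of the limma fit and colour for the call. The 14 eIF3 genes split into 5 called higher and 9 with negative differences, the 4 eIF2 kinase genes all lie left of 0, and Eef2 has the lowest value, -2.28.

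GFP-negative 9 lay nearer to the GFP-positive libraries than 11 and M did in much of what follows. Among the GFP-negative libraries it was the one nearest the GFP-positive group for 6 of the 7 genes that rose and 6 of the 7 that fell. The same held for 61.1% of all features called higher and 75.6% of all features called lower. With GFP-negative 11 and M both left out, 9 alone is the control and is assumed to vary as the GFP-positive libraries do, from which the whole spread comes. That fit by limma called 1 of 18688 features (0.00535%), so that it called none of the translation factor genes (12 with an unadjusted p under 0.05) carries little information, and its differences are used below as values only.

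Marker genes of testis cells were read beside these values. Of 12 Sertoli markers, Clu reached 2852, 1686 and 1214 scaled FPKM in GFP-positive libraries and 2594, 514 and 2385 in GFP-negative ones, and Rhox5 and Rhox8 were below the filter. Of the 10 tested, 1 was called higher and 3 lower (11.9% and 8.55% of all features), 6 had positive differences, and the median was 0.063. The called ones were Dmrt1 (1.16), which rose, and the transcription factor genes Sox9 (-1.86, adjusted p = 0.0133) and Gata4 (-1.77) and the growth factor gene Gdnf (-1.21), which fell. Trf, the transferrin gene, had 45.7, 83.3 and 45.3 scaled FPKM in GFP-positive libraries, against 29.3, 7.45 and 25.9 in GFP-negative ones, without overlap and not called (1.61, adjusted p = 0.0612). The germ cell list had 5 of 7 tested genes called higher, against 11.9% of all features, with a summed level of 33.8 to 145 scaled FPKM in GFP-positive libraries, against 1.31 to 2.83 in GFP-negative ones, while the sperm genes Prm1 and Prm2 were listed at 0 in every library. The fibroblast list summed to 39.6 to 58.0 in GFP-positive libraries, against 47.0 to 1149 in GFP-negative ones. None of its 5 genes was called (3 with an unadjusted p under 0.05), and 4 had negative differences and 1 a positive one. Col1a1, its gene of highest mean, had 2.46, 5.84 and 7.95 scaled FPKM in GFP-positive libraries, against 9.85, 686 and 140 in GFP-negative ones. It was the only gene of the list whose groups did not overlap. Col1a2 had 20.6, 32.2 and 44.4 scaled FPKM in GFP-positive libraries, against 30.8, 441 and 131 in GFP-negative ones. Col1a2 overlapped between groups and exceeded Col1a1 in the GFP-positive libraries and GFP-negative 9. Dcn had the positive difference (0.997). The peritubular myoid list (49.7 to 477 in GFP-positive libraries, against 133 to 529 in GFP-negative ones) had no called gene either (2 with an unadjusted p under 0.05). Nor had the Leydig list (35.8 to 88.0 in GFP-positive libraries, against 69.8 to 86.1 in GFP-negative ones, 1 with an unadjusted p under 0.05). Of the 5 myoid genes, 4 had negative differences and 1 a positive one. Myh11 (-2.47) and Actg2 (-2.15) were lower in GFP-positive libraries without overlap, while Acta2, most of the myoid sum, overlapped (-0.048). Of the 4 tested Leydig genes, 2 had positive and 2 negative differences, and Insl3 (-1.62) was lower in GFP-positive libraries without overlap. The macrophage list summed to at most 2.27 in GFP-positive libraries, against 3.58 to 7.79 in GFP-negative ones. Of its 5 genes 2 were tested. Lyz2 was called lower in GFP-positive libraries (-1.84), and Cd68, with a difference of 0.27, was not called. The part of these differences in the translation factor values was not tested, and fewer cells of a type and less RNA per cell cannot be told apart in bulk libraries.

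**Figure D2:**
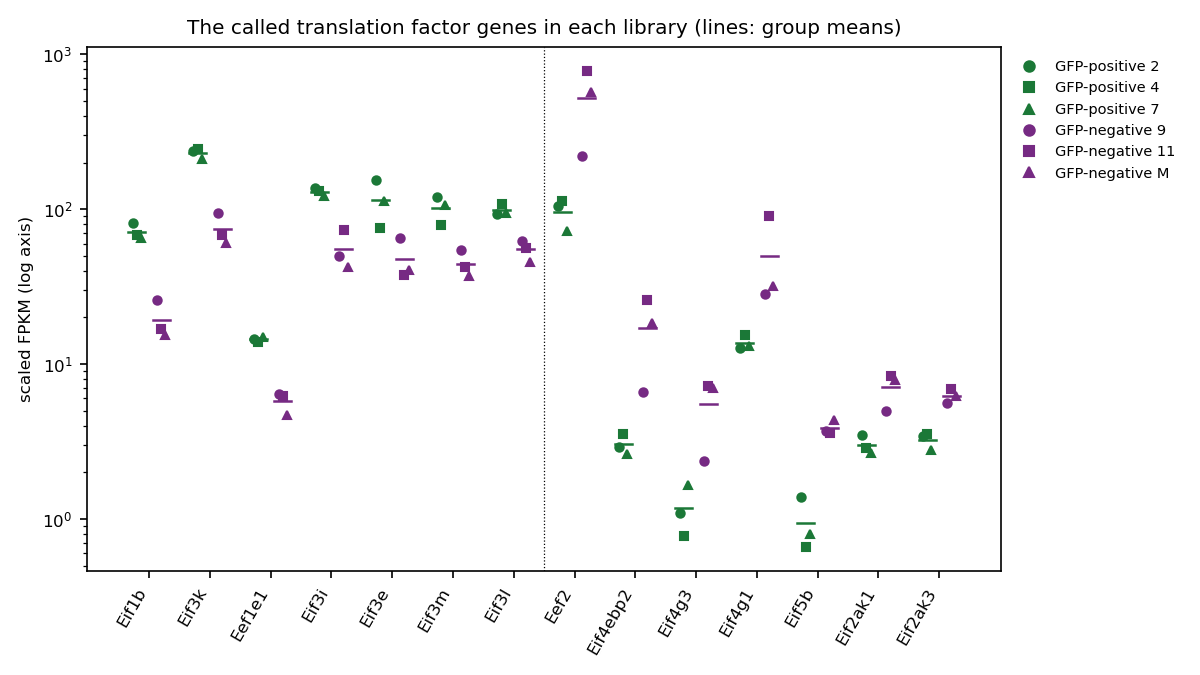
Scaled FPKM (log axis) of the 14 called translation factor genes in each library, green for GFP-positive and purple for GFP-negative, with a line at each group mean. The groups do not overlap in any of the 14, and GFP-negative 9 (circle) is the GFP-negative library closest to the green points in 12 of them.

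Of the eIF1 paralogues, Eif1b rose and Eif1 was not called. Eif1 and Eif1b encode close relatives of eIF1, the small factor that keeps the scanning ribosome from starting at wrong codons. The first 90 coding bases of each gene are shown because reads from near-identical copies can be split wrongly, and the capitals mark the bases at which the pair differ.
Eif1: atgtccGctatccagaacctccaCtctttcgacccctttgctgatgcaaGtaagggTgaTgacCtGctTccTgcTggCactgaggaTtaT
Eif1b: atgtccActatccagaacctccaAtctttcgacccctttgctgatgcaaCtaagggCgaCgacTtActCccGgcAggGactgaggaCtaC
Both were read from the GRCm38 transcripts of GENCODE M21, Eif1 from chromosome 11 and Eif1b from chromosome 9. They differ at 13 of these 90 bases and at 64 of the 342 bases of the whole coding sequence, which leaves an identity of 81.3%. The longest coding stretch without a difference is 25 bases.

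Eif1b (chr9:120321298-120324396, mm39) had 81.8, 68.3 and 64.9 scaled FPKM in GFP-positive libraries, against 25.9, 16.8 and 15.4 in GFP-negative libraries. Every GFP-positive library was above every GFP-negative one, and the difference of 1.89 ± 0.28 (SE, adjusted p = 0.0108) was the largest rise among the tested translation factor genes. Eif1 (chr11:100210711-100212922) had 84.8, 111 and 101 scaled FPKM in GFP-positive libraries, against 142, 213 and 151 in GFP-negative libraries. Its groups did not overlap either, in the other direction, but its difference of -0.75 ± 0.28 (SE, adjusted p = 0.0895) was not called.

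Because both genes were measured in the same library, their ratio barely depends on the scaling between libraries. The log2 ratio of Eif1b to Eif1 was -0.052, -0.70 and -0.64 in GFP-positive libraries, against -2.43, -3.63 and -3.26 in GFP-negative libraries. The groups were apart by 2.64 (exact two-sided permutation p = 0.1, adjusted p = 0.275 over 11 ratios), where 0.1 is the smallest p that 3 against 3 libraries can give. Eif1b was thus at or somewhat below the level of Eif1 in each GFP-positive library and far below it in each GFP-negative one. Of the 11 ratios between paralogues or partners, 4 had groups that did not overlap. These are Eif1b to Eif1, the ratios of Eif4g2 to Eif4g1 and Eef2k to Eef2 given with those genes, and Eef1a2 to Eef1a1, which has little content because Eef1a2 was near 0.

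Eif1a, an autosomal gene for eIF1A, the partner of eIF1 on the small subunit, had 24.5, 12.8 and 21.3 scaled FPKM in GFP-positive libraries, against 17.5, 17.7 and 12.9 in GFP-negative libraries. Its groups overlapped and it was not called (0.24, adjusted p = 0.589). Eif1ad, which encodes an eIF1A domain protein, also overlapped between groups (-0.12, adjusted p = 0.809).

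The eIF2 step showed its clearest differences among the kinases. The genes for the alpha and beta subunits of eIF2, which carries the initiator tRNA, were not called. Eif2s1 had 22.5, 18.6 and 26.7 scaled FPKM in GFP-positive libraries, against 17.3, 17.7 and 14.2 in GFP-negative libraries (0.44, adjusted p = 0.223). Eif2s2 had 24.7, 10.6 and 19.6 scaled FPKM in GFP-positive libraries, against 27.7, 23.3 and 23.4 in GFP-negative libraries (-0.50, adjusted p = 0.294). The groups did not overlap for Eif2s1 but did for Eif2s2, and neither reached an unadjusted p under 0.05.

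eIF2B, the exchange factor that reloads eIF2 with GTP, is built of 5 different subunits, and limma called none of their genes (1 with an unadjusted p under 0.05). Eif2b5, the catalytic epsilon subunit and the most abundant of the 5 transcripts, had 28.2, 30.5 and 26.0 scaled FPKM in GFP-positive libraries, against 20.7, 26.6 and 16.7 in GFP-negative libraries (0.42, adjusted p = 0.262). Eif2b2, the beta subunit, had 15.8, 23.7 and 20.5 scaled FPKM in GFP-positive libraries, against 8.03, 15.2 and 9.59 in GFP-negative libraries (0.87, adjusted p = 0.0756). Its groups did not overlap, while those of Eif2b5 did. Eif2b1, the alpha subunit that senses phosphorylated eIF2, had 7.13, 8.13 and 7.34 scaled FPKM in GFP-positive libraries, against 8.25, 9.89 and 8.18 in GFP-negative libraries, without overlap but with a difference of only -0.20 (adjusted p = 0.54). The gamma subunit gene Eif2b3 (-0.39) and the delta subunit gene Eif2b4 (0.36) overlapped between groups.

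The 4 eIF2 kinases phosphorylate the alpha subunit and thereby slow initiation, each in response to its own stress. All 4 genes were lower in every GFP-positive library than in any GFP-negative one, against 20.7% of all features with groups apart in that direction. Eif2ak1, the haem-regulated kinase HRI (chr5:143803543-143841069), had 3.49, 2.87 and 2.65 scaled FPKM in GFP-positive libraries, against 5.003, 8.39 and 7.87 in GFP-negative libraries, and fell (log2 difference -1.09, SE 0.29, adjusted p = 0.0343). Eif2ak3, the kinase PERK of the endoplasmic reticulum (chr6:70821499-70882229), had 3.44, 3.54 and 2.77 scaled FPKM in GFP-positive libraries, against 5.64, 6.87 and 6.19 in GFP-negative libraries, and fell (log2 difference -0.85, SE 0.25, adjusted p = 0.0453). These calls stood when GFP-negative 9 was left out and in none of the other 5 fits without a library, where the log2 differences over all 6 fits ran from -1.32 to -0.99 for Eif2ak1 and from -0.92 to -0.73 for Eif2ak3.

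Eif2ak2, the double-stranded RNA kinase PKR, had 0.718, 1.71 and 1.54 scaled FPKM in GFP-positive libraries, against 2.03, 2.73 and 3.75 in GFP-negative libraries (-0.89, adjusted p = 0.0997). Eif2ak4, the amino acid sensor GCN2, had 2.45, 3.15 and 3.61 scaled FPKM in GFP-positive libraries, against 4.70, 6.89 and 4.87 in GFP-negative libraries (-0.74, adjusted p = 0.0883). Neither was called, although all 4 kinase genes had an unadjusted p under 0.05. All 4 were low transcripts, with no library above 8.39 scaled FPKM. When a trend with transcript length was removed within each library, all 4 differences stayed negative and none was called. They were then -0.82 for both Eif2ak1 and Eif2ak2, -0.59 for Eif2ak3 and -0.39 for Eif2ak4. Eif2ak1 overlaps Aimp2 on the opposite strand, and which strand setting the authors' assembly used is not given in the sources here.

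Eif2a and Eif2d encode factors that can bring tRNA to the ribosome without eIF2. Eif2a had 20.04, 10.6 and 16.6 scaled FPKM in GFP-positive libraries, against 11.8, 7.86 and 7.79 in GFP-negative libraries (0.73, adjusted p = 0.127), with GFP-positive 4 below GFP-negative 9. Eif2d had 12.3, 15.3 and 14.8 scaled FPKM in GFP-positive libraries, against 11.0, 15.7 and 12.2 in GFP-negative libraries, with overlapping groups and a difference of 0.13 (adjusted p = 0.729).

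The 14 eIF3 genes split within the complex. eIF3 is the largest initiation factor, a scaffold of an 8-subunit core (a, c, e, f, h, k, l and m), a module of b, g and i, and the attached subunits d and j. Of its genes, 5 rose and none was called lower, against 11.9% and 8.55% of all features, while all of the other 9 had negative differences, and 11 of the 14 had an unadjusted p under 0.05. The median over the 14 was -0.50. The calls moved with the fit. Without GFP-negative 9 the 5 genes rose and Eif3f (-2.28), Eif3b (-1.62), Eif3h (-1.50) and Eif3c (-1.13) fell, and Eif3f was also called lower with FPKM as deposited and with unnamed isoforms added. After quantile normalization Eif3k alone was called higher and Eif3c alone lower (-1.35), and at an equal sum of FPKM the other 9 were all called lower. Eif3d was at 0.0042 without GFP-negative 11, and against GFP-negative 9 alone Eif3d (0.25) and Eif3g (0.36) had positive differences. The genes that rose and those that did not were found in both the core and the b, g and i module.

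Eif3k (chr7:28670797-28681289), a peripheral core subunit, had 237, 246 and 212 scaled FPKM in GFP-positive libraries, against 95.1, 68.1 and 60.5 in GFP-negative libraries. It was the most abundant eIF3 transcript in the GFP-positive libraries, without overlap between groups (log2 difference 1.65, SE 0.28, adjusted p = 0.0135). Eif3e (chr15:43113454-43146115), also known as Int6, had 155, 75.9 and 112 scaled FPKM in GFP-positive libraries, against 65.5, 37.7 and 40.4 in GFP-negative libraries. GFP-positive 4 and GFP-negative 9 came close together at the edges of the groups, and the gene rose (log2 difference 1.23, SE 0.35, adjusted p = 0.0437).

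Eif3m (chr2:104830001-104847425) had 121, 78.5 and 107 scaled FPKM in GFP-positive libraries, against 54.1, 42.1 and 36.8 in GFP-negative libraries, and rose (log2 difference 1.19, SE 0.28, adjusted p = 0.027). Eif3l (chr15:78959379-78978605), the partner of Eif3k at the edge of the core, had 93.7, 108 and 94.3 scaled FPKM in GFP-positive libraries, against 62.5, 56.5 and 45.7 in GFP-negative libraries, and rose (log2 difference 0.85, SE 0.25, adjusted p = 0.0471). Eif3i (chr4:129485753-129494441), a WD-repeat subunit of the b, g and i module, had 136, 131 and 122 scaled FPKM in GFP-positive libraries, against 49.7, 73.6 and 42.5 in GFP-negative libraries, and rose (log2 difference 1.26, SE 0.28, adjusted p = 0.0232). In each of these 3 the lowest GFP-positive library was above the highest GFP-negative library. With the FPKM of every library set to 1 common sum, Eif3l was at -0.24 and the other 4 were between 0.095 and 0.56, none called.

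Eif3f (chr7:108533624-108542158), a core subunit with an MPN domain, had 9.10, 11.4 and 8.002 scaled FPKM in GFP-positive libraries, against 12.6, 54.0 and 41.6 in GFP-negative libraries. Its groups did not overlap, GFP-negative 9 lay close to the GFP-positive libraries, and the difference of -1.65 ± 0.50 (SE, adjusted p = 0.0521) missed the threshold. Eif3b, the scaffold of the b, g and i module, had 22.1, 32.7 and 23.2 scaled FPKM in GFP-positive libraries, against 32.4, 114 and 54.9 in GFP-negative libraries (-1.18, adjusted p = 0.0892). Eif3h had 22.6, 23.8 and 17.3 scaled FPKM in GFP-positive libraries, against 23.2, 64.4 and 55.5 in GFP-negative libraries (-1.04, adjusted p = 0.095). For both, GFP-negative 9 lay within the range of the GFP-positive libraries and 11 and M lay above it.

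Eif3c, with Eif3a the backbone of the core, had 47.8, 32.9 and 32.1 scaled FPKM in GFP-positive libraries, against 50.7, 96.5 and 68.2 in GFP-negative libraries (-0.90, adjusted p = 0.0767). Eif3a had 9.06, 8.41 and 7.98 scaled FPKM in GFP-positive libraries, against 14.6, 10.4 and 21.1 in GFP-negative libraries (-0.77, adjusted p = 0.0997). The groups did not overlap for either gene. Eif3d, a subunit that can bind the cap (-0.31), and Eif3g, an RNA-binding subunit (-0.42), overlapped between groups. Of the 2 genes for subunit j, Eif3j1 was at -0.58 with overlap and Eif3j2 at -0.69 without overlap (adjusted p = 0.115). For Eif3j1, Eif3a and several other genes, part of the locus is assembled as unnamed isoforms, which hold 59.8% of the FPKM for Eif3j1 and 44.3% for Eif3a.

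Ratios of a subunit gene that rose to a subunit gene with a negative difference are given within each library. These 3 ratios were chosen after the values were seen. Their direction follows from that choice, and they are described without a test. The log2 ratio of Eif3k to Eif3f was 4.63, 4.37 and 4.64 in GFP-positive libraries, against 2.87, 0.33 and 0.53 in GFP-negative libraries. That of Eif3i to Eif3b was 2.60, 1.99 and 2.36 in GFP-positive libraries, against 0.61, -0.62 and -0.37 in GFP-negative libraries. For Eif3e to Eif3h it was 2.75, 1.65 and 2.66 in GFP-positive libraries, against 1.48, -0.77 and -0.45 in GFP-negative libraries. In all 3 ratios GFP-negative 9 lay between the GFP-positive libraries and GFP-negative 11 and M.

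**Figure D3:**
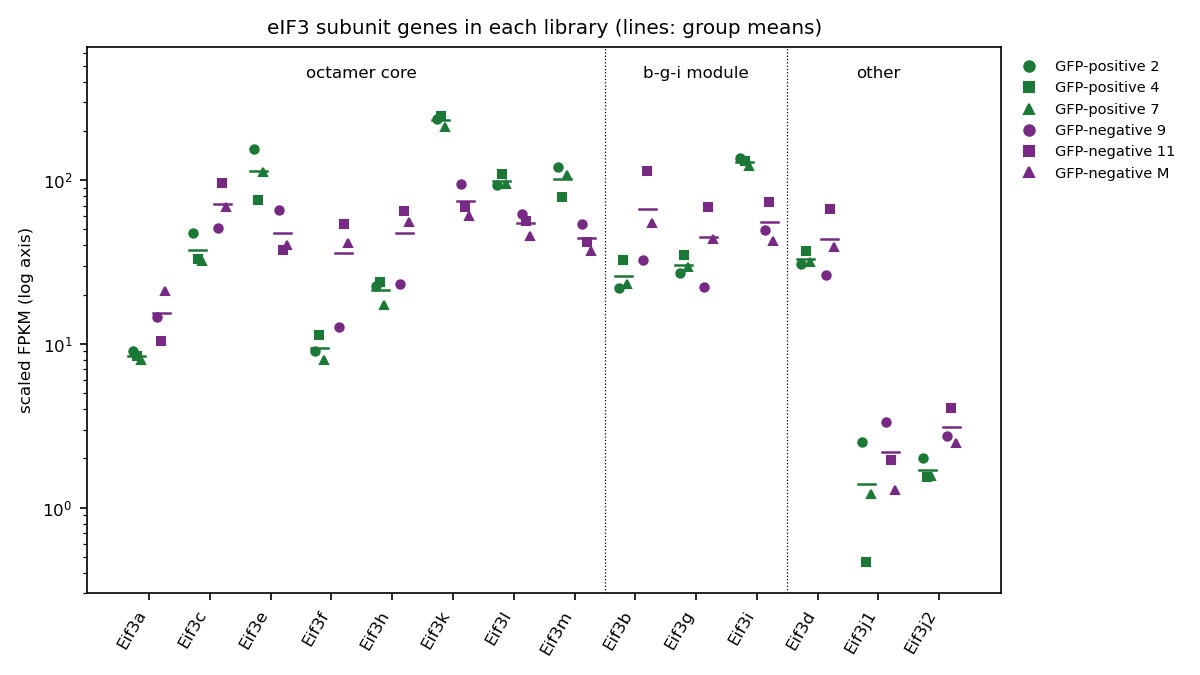
Scaled FPKM (log axis) of the 14 eIF3 genes in each library, arranged by core, b, g and i module and other subunits, green for GFP-positive and purple for GFP-negative, with a line at each group mean. Eif3e, Eif3k, Eif3l, Eif3m and Eif3i have the green points on top, and in the other 9 genes the green mean is below the purple one.

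At the cap, a pair of scaffold genes and an inhibitor gene fell, while cap-binding and helicase genes were not called. eIF4G joins the cap-binding protein eIF4E, the helicase eIF4A and eIF3. Eif4g1 (chr16:20487063-20511990), the main scaffold, had 12.6, 15.3 and 13.1 scaled FPKM in GFP-positive libraries, against 28.1, 90.3 and 31.9 in GFP-negative libraries, and fell (log2 difference -1.63, SE 0.43, adjusted p = 0.0354). Eif4g3 (chr4:137720333-137940005), its paralogue, had 1.09, 0.773 and 1.66 scaled FPKM in GFP-positive libraries, against 2.38, 7.18 and 7.05 in GFP-negative libraries, and fell (log2 difference -1.75, SE 0.44, adjusted p = 0.0302). In both genes all GFP-negative libraries were above all GFP-positive ones, and GFP-negative 9 was the lowest of the GFP-negative libraries. Eif4g1 was called in 2 of the 6 fits without a library and Eif4g3 in 1, and 45.2% of the FPKM at the Eif4g3 locus lies in unnamed isoforms, with which the difference was -1.65.

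Eif4g2, also called DAP5, lacks the eIF4E binding site and serves initiation that does not use the cap-bound complex. It had 151, 147 and 155 scaled FPKM in GFP-positive libraries, against 191, 111 and 107 in GFP-negative libraries, with overlap and no call (0.20, adjusted p = 0.651). The log2 ratio of Eif4g2 to Eif4g1 was 3.53, 3.22 and 3.52 in GFP-positive libraries, against 2.74, 0.30 and 1.72 in GFP-negative libraries. These groups were apart by 1.84 without overlap (exact two-sided permutation p = 0.1, the smallest possible, adjusted p = 0.275). For Eif4g3 to Eif4g1 the difference was -0.12 (exact permutation p = 0.8), and the groups overlapped.

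Eif4e, the cap-binding protein gene, had 17.6, 15.6 and 18.6 scaled FPKM in GFP-positive libraries, against 11.7, 9.82 and 8.77 in GFP-negative libraries. Every GFP-positive library was higher, but the gene was not called (log2 difference 0.75, SE 0.24, adjusted p = 0.0577). Eif4e2, encoding the cap-binding repressor 4EHP, had 28.3, 37.1 and 31.8 scaled FPKM in GFP-positive libraries, against 20.9, 29.5 and 22.3 in GFP-negative libraries, with overlap (0.42, adjusted p = 0.253). Eif4e3 was just above the filter, with no library over 0.841 scaled FPKM (0.14).

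The 4E-binding proteins hold eIF4E away from eIF4G until mTORC1 phosphorylates them. Eif4ebp2 (chr10:61264270-61288440) had 2.93, 3.55 and 2.64 scaled FPKM in GFP-positive libraries, against 6.59, 25.9 and 18.5 in GFP-negative libraries, and fell (log2 difference -2.12, SE 0.46, adjusted p = 0.0216). The highest GFP-positive library was well below the lowest GFP-negative library, and among the fits without a library the call stood only without GFP-negative 9 (-2.68). Eif4ebp1 had 14.8, 8.62 and 12.1 scaled FPKM in GFP-positive libraries, against 16.9, 7.21 and 3.75 in GFP-negative libraries, with overlap and no call (0.54, adjusted p = 0.44), and with unnamed isoforms added, which hold 52.0% of its FPKM, its difference was -0.085. Eif4enif1, the gene of the eIF4E transporter 4E-T, had 4.46, 3.16 and 4.16 scaled FPKM in GFP-positive libraries, against 5.24, 15.9 and 9.47 in GFP-negative libraries (-1.16, adjusted p = 0.069). Its groups did not overlap, and with unnamed isoforms added it was called.

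The log2 ratio of Eif4ebp2 to Eif4ebp1 was -2.15, -1.17 and -2.01 in GFP-positive libraries, against -1.30, 1.78 and 2.16 in GFP-negative libraries. GFP-negative 9 lay among the GFP-positive values (exact two-sided permutation p = 0.2). On named transcripts, GFP-negative 11 and M were the libraries in which Eif4ebp2 exceeded Eif4ebp1. The unnamed isoforms, 52.0% of the FPKM at the Eif4ebp1 locus, are left out of this ratio, and it was not computed with them. Which of the 2 transcripts was the more abundant with them included is therefore not known.

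Among the eIF4A helicase and its helpers, limma called none of 4 genes (2 with an unadjusted p under 0.05). Eif4a1, the main helicase and one of the most abundant translation factor transcripts, had 364, 431 and 399 scaled FPKM in GFP-positive libraries, against 266, 254 and 199.9 in GFP-negative libraries. Its groups did not overlap (0.74, adjusted p = 0.0967), but after quantile normalization its difference was -0.33. Eif4b, an RNA-binding helper of eIF4A, had 36.5, 35.0 and 32.9 scaled FPKM in GFP-positive libraries, against 45.1, 62.5 and 49.6 in GFP-negative libraries, apart in the other direction (-0.57, adjusted p = 0.122). Eif4a2 (0.33) and Eif4h (0.34) overlapped between groups. Eif4a3, which encodes a helicase of the exon junction complex rather than an initiation factor, had 36.3, 36.1 and 31.1 scaled FPKM in GFP-positive libraries, against 32.9, 48.9 and 32.0 in GFP-negative libraries, the smallest difference in size among all 62 genes (-0.11).

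At the start codon, Eif5b (chr1:38037091-38094660), whose GTPase joins the large subunit, had 1.39, 0.658 and 0.798 scaled FPKM in GFP-positive libraries, against 3.69, 3.59 and 4.34 in GFP-negative libraries. Every GFP-positive library was lower and the gene fell (log2 difference -1.62, SE 0.29, adjusted p = 0.0148). The sum covers named transcripts only. Unnamed isoforms hold 54.4% of the FPKM at its locus, and with them added the difference was -0.44 (adjusted p = 0.207), so the call rests on the gene definition. Eif5b also overlaps Rev1 on the opposite strand.

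Eif5, the GTPase activator of eIF2, had 37.3, 57.9 and 64.0 scaled FPKM in GFP-positive libraries, against 71.7, 25.0 and 18.3 in GFP-negative libraries, with overlap (0.68, adjusted p = 0.336). GFP-negative 9 had the highest level and GFP-negative 11 and M the lowest. Eif6, which keeps free large subunits from joining, had 81.3, 119.7 and 92.5 scaled FPKM in GFP-positive libraries, against 53.1, 85.0 and 34.7 in GFP-negative libraries, with overlap (0.83, adjusted p = 0.129).

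eIF5A, the protein that carries the modified residue hypusine and helps ribosomes through difficult peptide bonds, has a pair of genes. Eif5a had 66.0, 112 and 76.5 scaled FPKM in GFP-positive libraries, against 113, 167 and 88.1 in GFP-negative libraries (-0.51, adjusted p = 0.289). Eif5a2 had 13.2, 4.79 and 7.61 scaled FPKM in GFP-positive libraries, against 5.16, 1.61 and 1.90 in GFP-negative libraries (1.45, adjusted p = 0.064). Both overlapped between groups, since GFP-negative 9 exceeded GFP-positive 4 for Eif5a2, and neither was called, although Eif5a2 was called in the fit with unnamed isoforms added (1.42).

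In elongation, the gene of the translocase fell and that of the tRNA delivery factor was not called. Eef1a1 (chr9:78385731-78396433), the gene of eEF1A and the most abundant transcript of all 87, had 4344, 2997 and 2943 scaled FPKM in GFP-positive libraries, against 2356, 1873 and 1476 in GFP-negative libraries. The GFP-positive libraries were all higher, but the difference of 0.85 ± 0.43 (SE, adjusted p = 0.179) was not called. Eef2 (chr10:81012465-81018332), the gene of the translocase, had 105, 112 and 72.3 scaled FPKM in GFP-positive libraries, against 221, 781 and 574 in GFP-negative libraries. Every GFP-positive library was below every GFP-negative one and Eef2 fell (log2 difference -2.28, SE 0.48, adjusted p = 0.0198), the largest fall among the 62 genes. GFP-negative 9 was by far the lowest of the GFP-negative libraries.

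The fall of Eef2 was called in 3 of the 6 fits without a library, with differences from -2.83 to -1.94, and its adjusted p was between 0.0462 and 0.0883 in 5 of them and 0.00395 without GFP-negative 9. Against GFP-negative 9 alone the difference was -1.29, a value with 1 control library and given without a test. The level of Eef2 was 2.41%, 3.75% and 2.46% of that of Eef1a1 in GFP-positive libraries, against 9.37%, 41.7% and 38.9% in GFP-negative libraries. This ratio was chosen after the values were seen and has no test.

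Eef1a1 held 62.5%, 52.4% and 53.6% of the summed scaled FPKM of all 87 genes in the GFP-positive libraries, against 51.2%, 36.3% and 38.3% in GFP-negative libraries. The summed level itself was 6949, 5715 and 5490 in GFP-positive libraries and 4599, 5165 and 3850 in GFP-negative ones. Without Eef1a1, it was 2606, 2718 and 2546 in GFP-positive libraries, against 2242, 3292 and 2374 in GFP-negative libraries. On these scaled values, the higher sums of the GFP-positive libraries came from Eef1a1, and the rest of the sum overlapped between groups. As a share of each library's total FPKM, the 87 genes held 1.13%, 0.679% and 0.73% in GFP-positive libraries. In GFP-negative libraries that share was 1.07%, 1.64% and 1.32%. Which group has the higher sum therefore depends on the scaling, and Eef1a1 itself was at -0.25 at an equal sum of FPKM.

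Eef2k, the kinase that inactivates eEF2, had 1.92, 4.16 and 2.36 scaled FPKM in GFP-positive libraries, against 2.76, 7.70 and 4.76 in GFP-negative libraries, with overlap (-0.71, adjusted p = 0.233). Relative to Eef2 in the same library its log2 ratio was -5.44, -4.60 and -4.67 in GFP-positive libraries, against -6.08, -6.58 and -6.77 in GFP-negative libraries. They were apart by 1.57 with no overlap (exact two-sided permutation p = 0.1, the smallest possible, adjusted p = 0.275).

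Eef1b2, Eef1d and Eef1g encode the exchange factor of eEF1A, and Eef1e1 was grouped with them by its symbol. Eef1e1 (chr13:38828183-38843034), whose product is better known as AIMP3, a part of the multi-tRNA synthetase complex, had 14.6, 14.0 and 14.9 scaled FPKM in GFP-positive libraries, against 6.44, 6.19 and 4.70 in GFP-negative libraries. The GFP-positive libraries agreed closely with one another, the groups did not overlap, and the gene rose (log2 difference 1.27, SE 0.24, adjusted p = 0.0157). Eef1g, the structural gamma subunit, had 39.6, 42.7 and 37.2 scaled FPKM in GFP-positive libraries, against 28.6, 96.4 and 45.7 in GFP-negative libraries (-0.33, adjusted p = 0.582). The exchange subunit genes Eef1b2 (0.26) and Eef1d (0.48) overlapped between groups as Eef1g did.

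**Figure D4:**
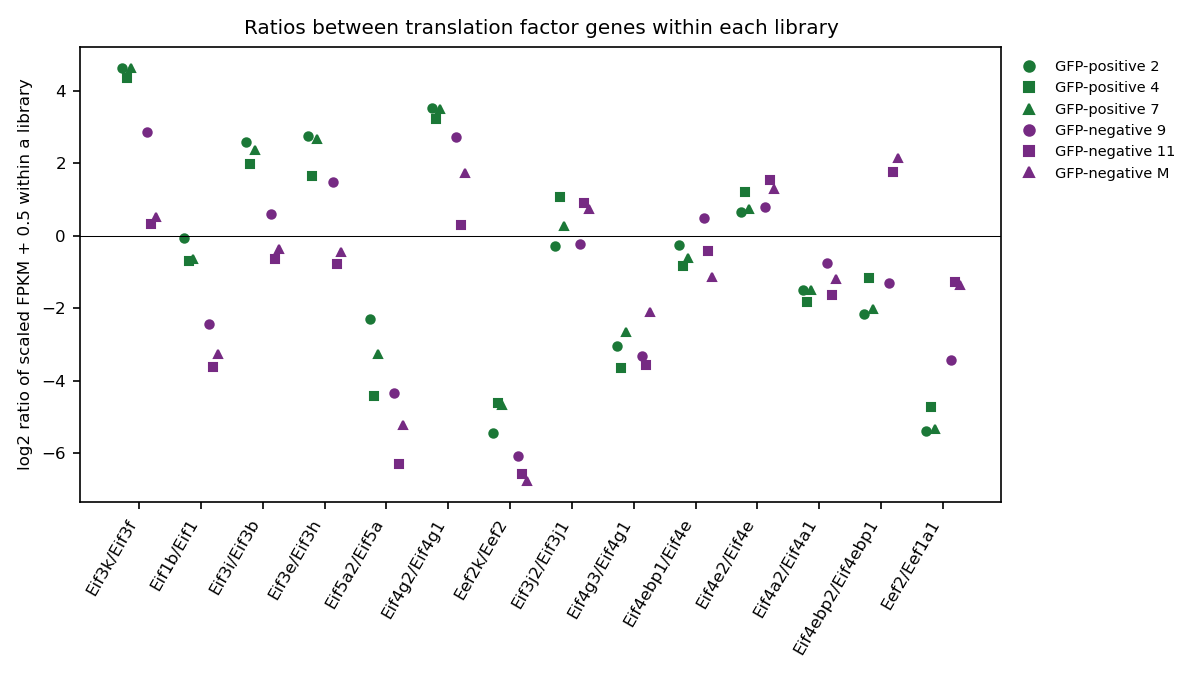
Log2 ratio of scaled FPKM + 0.5 between pairs of translation factor genes within each library, green for GFP-positive and purple for GFP-negative. Eif3k/Eif3f, Eif1b/Eif1, Eif4g2/Eif4g1 and Eef2k/Eef2 are higher in all GFP-positive libraries, Eef2/Eef1a1 is lower in all of them, and GFP-negative 9 is the purple point nearest the green ones in each of these.

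The methyltransferases that modify eEF1A and eEF2 were low transcripts, and limma called none of the 5 tested (2 with an unadjusted p under 0.05). Eef1akmt1, a lysine methyltransferase of eEF1A, had 12.04, 16.0 and 13.2 scaled FPKM in GFP-positive libraries, against 7.93, 9.09 and 5.35 in GFP-negative libraries (0.86, adjusted p = 0.0609). Eef2kmt, which methylates eEF2, had 7.07, 5.46 and 5.71 scaled FPKM in GFP-positive libraries, against 3.90, 3.94 and 3.70 in GFP-negative libraries (0.59, adjusted p = 0.111). Both were higher in all GFP-positive libraries than in any GFP-negative one, as was Eef1akmt4 (0.80). Eef1akmt2 (0.74) and Eef1aknmt (-0.37) overlapped.

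The 25 genes below the filter were Eef1a2, Eif4e1b, Eif4ebp3, Eif4a3l1, Eif4a3l2, Eef1akmt3, Eif2c5, the readthrough name Eef1ece2 and 17 genes with numbered Eif1ad symbols. None had a mean above 0.164 scaled FPKM, and the lowest tested mean was 0.597, for Eif4e3. The 17 genes with numbered Eif1ad symbols did not exceed 0.0384 in any library, and 14 of the 25 were listed at 0 in all 6. Eef1a2, the muscle and neuron form of eEF1A, and Eif4e1b, an oocyte form of eIF4E, were thus barely detected beside Eef1a1 and Eif4e.

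Transcript length ordered the called genes. Length here is the mean over a gene's transcripts weighted by their FPKM. The 7 genes that rose had a median length of 1294 nt, from 829 nt for Eif3k to 2473 nt for Eef1e1. The 7 that fell had a median of 4213 nt, from 3081 nt for Eef2 to 7230 nt for Eif5b, so the called sets did not overlap in length. The 48 genes that were not called had a median of 2406 nt.

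Spearman's correlation between log2 difference and length was -0.53 over the 62 genes and -0.43 over all 13595 tested named genes, as a description across genes that share the same 6 libraries. With GC content it was -0.091 in both sets. Within eIF3 the 5 genes that rose were 829 to 1933 nt long and the other 9 were 1083 to 4162 nt, with Eif3g and Eif3h among the short genes that had negative differences. When a trend with length was removed within each library, 3 genes were called higher, Eif1b (1.27), Eif4e (1.18) and Eef1e1 (1.17), and 2 lower, Eef2 (-2.21) and Eif1 (-1.29), against 3.33% higher and 4.43% lower over all features. Of the 14 calls, 3 remained. The 5 eIF3 genes then stood between 0.58 and 0.93 and were not called, and the part of length in their difference was not tested further.

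**Figure D5:**
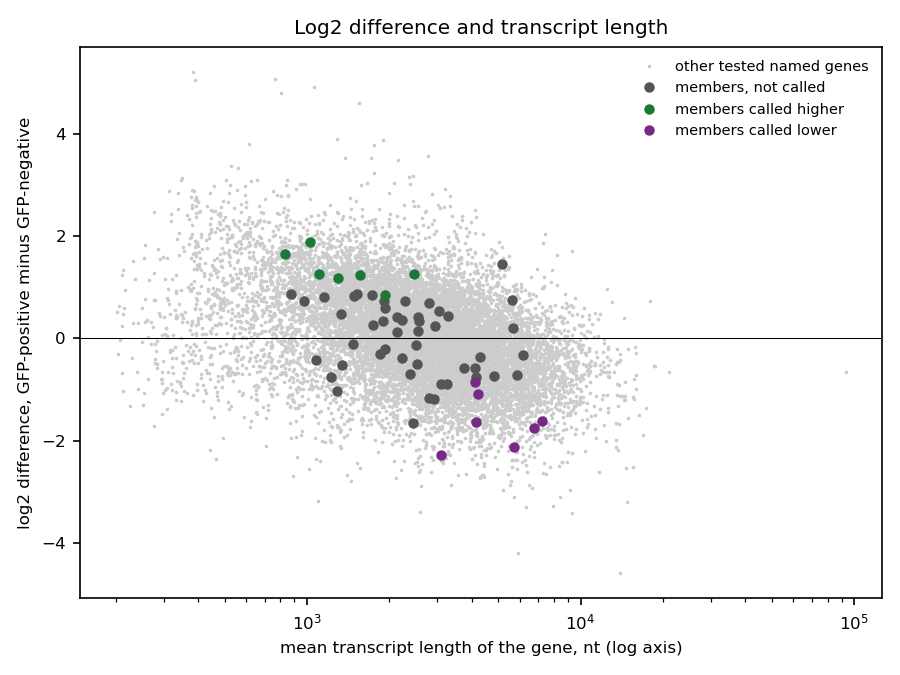
Log2 difference (GFP-positive minus GFP-negative) against FPKM-weighted transcript length in nt (log axis) for the other tested named genes in grey and the 62 translation factor genes in darker colours. The genes called higher lie at 829 to 2473 nt and those called lower at 3081 to 7230 nt, along the downward slope of the grey cloud, with Eef2 near its lower edge.

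Isoform use was read as the leading transcript's share of the FPKM of a gene's named transcripts. It was read for 18 genes with at least 2 isoforms at 20% or more and a mean of at least 5 scaled FPKM. The groups did not overlap in 4 of the 18, and none passed over the 18 genes (smallest adjusted p = 0.45, exact permutation tests that cannot go below 0.1). Isoform shares were not computed over all features, so the count of 4 has no background beside it. For Eif1 the share was 57.0%, 46.5% and 37.4% in GFP-positive libraries, against 62.9%, 76.7% and 81.7% in GFP-negative libraries. For Eif4g2 it was 67.9%, 54.1% and 59.5% in GFP-positive libraries, against 72.2%, 72.8% and 74.6% in GFP-negative libraries. Eif3a was also lower in GFP-positive libraries (mean 44.7%, against 70.4% in GFP-negative libraries), and Eif1a was higher (85.6%, against 73.1% in GFP-negative libraries). Unnamed isoforms, which these shares leave out, hold 44.3% of the FPKM at the Eif3a locus.

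Other genes of the translation pathway, from lists chosen for their role, were read from the same fit. They gave 6 rises and 7 falls among 39 tested, against 11.9% and 8.55% of all features, and a median difference of 0.12, against 0.014 over all features. The same 2 shares apply to each list that follows, and the lists are too short to set single counts against them. Among 7 termination and recycling genes, Mcts1, a partner of DENR in recycling (1.27), and Gspt2, an eRF3 gene (1.13), rose and none was called lower. Of 5 genes for poly(A)-binding proteins and partners, Pabpc1, which closes the mRNA loop through eIF4G, fell (-1.38), as did Paip2b (-0.92). Pabpc1 had 71.4, 56.6 and 55.0 scaled FPKM in GFP-positive libraries, against 114, 220.2 and 158 in GFP-negative libraries, without overlap.

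Of 9 enzymes that make hypusine on eIF5A or diphthamide on eEF2, Dohh, the last enzyme of hypusine synthesis (1.31), Dph3 (1.06) and Dnajc24 (1.03) rose and none was called lower. In the mTORC1 list of 14 genes, the repressor gene Larp1 (-1.53), the kinase gene Mtor (-1.46), Rptor (-1.37) and Deptor (-1.26) fell and Mlst8 rose (1.14). Ppp1r15a, the stress-induced subunit of the eIF2 phosphatase also called GADD34, had 1.24, 1.64 and 1.56 scaled FPKM in GFP-positive libraries, against 6.01, 11.5 and 6.24 in GFP-negative libraries. It fell (-2.04, adjusted p = 0.0118), while Atf4, the transcription factor whose translation rises when eIF2 is phosphorylated, was not called (0.41, adjusted p = 0.328). Over these lists the genes that rose were 918 nt (Mcts1) to 3119 nt (Mlst8) long. Those that fell were 2633 nt (Pabpc1) to 8510 nt (Deptor) long. The part of length in these calls was not tested, and the fits without a library were not read for these genes.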

How the data were processed

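Per the labels' protocols, TRIzol total RNA was DNase-treated and depleted of ribosomal RNA, and dUTP libraries that keep the strand were made. Build mm39 and the tools Trimmomatic, HISAT2 and StringTie are named in the submitters' processing notes, all without a version. Each of the 6 deposited tables lists the same 153503 transcripts, with the authors' FPKM and mean per-base coverage for each, per the file headers. Read counts were not used here, so values carry no counting interval, and depth is given as aligned bases, found as coverage over FPKM. The coverage column served only for that.

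FPKM was summed over the named transcripts of each gene symbol, and unnamed loci were kept by their assembly identifier. Scaling between libraries used the median of ratios over 15372 features. These had a mean FPKM of at least 1, were detected in every library and had a longest transcript of at least 200 nt. Features whose longest transcript was at least 200 nt and whose mean scaled FPKM was at least 0.5 were tested, 13595 named genes and 5326 unnamed loci. The test was limma's moderated one (version 3.58.1 in R 4.3.3, lmFit and eBayes, its variance prior following the mean) on log2(scaled FPKM + 0.5). P-values were adjusted by Benjamini-Hochberg over all 18921 features, with a threshold of 0.05. A difference on this scale understates the change of low genes. Ratios within libraries and isoform shares were compared by exact two-sided permutation tests.

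The genes, complexes and lists were chosen with earlier results of these data known. By rule, any gene of the set may be named with its log2 difference. Values in every library are given for called genes, for the most abundant gene of a complex and for those of opposite sign, and others are named because their values stood out. Of the other translation genes, up to 3 called ones per list were to be named, and Deptor and Mlst8 in the mTORC1 list and Atf4 were added after their values were seen. In the marker lists the genes of highest level were to be named. Sox9, Gata4, Gdnf, Dmrt1, Trf, Rhox5, Rhox8, Prm1, Prm2, Lyz2, Cd68, Col1a2, Dcn, Myh11, Actg2 and Insl3 were added after their values were seen. The tests were repeated under 17 alternatives, of which 6 leave out a library, and 1 added after the data were seen, which leaves out GFP-negative 11 and M. GC content and the printed sequences came from GENCODE M21 transcripts (GRCm38) matched by identifier, with coding sequence taken as the longest open reading frame. Coordinates are those of the deposited tables. Tables were read with pandas 2.3.3 in Python 3.11.15 and figures drawn with matplotlib 3.10.9.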

Additional observations from a re-analysis of the deposited data

How the results depend on the processing

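No paired analysis was possible because the groups share no replicate number (2, 4 and 7 against 9, 11 and M). Against 3862 called features, with 7 translation factor genes called higher and 7 lower, the counts for all features, higher and lower genes were 1122, 3 and 1 with no filter, 8120, 0 and 30 at an equal sum of FPKM in all libraries (34 genes with an unadjusted p under 0.05), 1470, 3 and 2 with the length trend removed, and 11572, 27 and 20 with library weights, whose fit did not converge. Quantile normalization gave 3364, 3 and 10. With GFP-negative 11 and M both left out, which leaves a control of 1 library and little power, limma called 1 feature and 0 genes in either direction. Leaving out 1 library at a time, the counts ran from 37 to 5809 for all features, from 0 to 11 for higher and from 0 to 13 for lower genes.

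The median log2 difference of 0.13 was -0.91 at an equal sum of FPKM, -0.26 after quantile normalization, -0.046 with the length trend removed and -0.14 without GFP-negative 9, and ran from -0.14 to 0.18 over the fits without a library. The sum of FPKM was 668557 to 747404 in GFP-positive and 292449 to 470070 in GFP-negative libraries, so an equal sum moved the median of all features to -0.89. Pseudocounts of 0.1 and 1 and a filter of 1 left all 14 calls in place. With FPKM as deposited 12 remained, with no mean-variance trend 13, with unnamed isoforms added 13, with quantile normalization 9, at an equal sum 7 and with no filter 4.

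Signs also turned. At an equal sum of FPKM this was so for Eef1a1 (-0.25), Eef1akmt1 (-0.19), Eef1akmt2 (-0.22), Eef1akmt4 (-0.23), Eef1b2 (-0.83), Eef1d (-0.60), Eef2kmt (-0.41), Eif1a (-0.83), Eif2a (-0.32), Eif2b2 (-0.19), Eif2b4 (-0.69), Eif2b5 (-0.66), Eif2d (-0.93), Eif2s1 (-0.63), Eif3l (-0.24), Eif4a1 (-0.36), Eif4a2 (-0.76), Eif4e (-0.31), Eif4e2 (-0.66), Eif4e3 (-0.46), Eif4ebp1 (-0.49), Eif4g2 (-0.90), Eif4h (-0.75), Eif5 (-0.41) and Eif6 (-0.26). After quantile normalization it was so for Eef1b2 (-0.14), Eif4a1 (-0.33), Eif4a2 (-0.33), Eif4g2 (-0.49) and Eif4h (-0.22). With the length trend removed it was so for Eef1b2 (-0.091), Eef1d (-0.013), Eef1g (0.13) and Eif2d (-0.079), with unnamed isoforms added for Eif4ebp1 (-0.085), and with library weights for Eef1b2 (-0.36). Over the fits without a library, Eef1b2 ran from -0.29 to 0.57 and Eif4e3 from -0.064 to 0.29 (turned without GFP-negative 9), and Eef1aknmt from -0.85 to 0.19, Eef1g from -0.74 to 0.099, Eif1ad from -0.41 to 0.17, Eif3d from -0.63 to 0.0042 and Eif4a3 from -0.25 to 0.047 (turned without GFP-negative 11). Against GFP-negative 9 alone, signs turned for Eef1aknmt (0.52), Eef1g (0.40), Eif1ad (0.36), Eif2b3 (0.019), Eif3d (0.25), Eif3g (0.36), Eif4a2 (-0.33), Eif4ebp1 (-0.60), Eif4g2 (-0.41) and Eif5 (-0.54). Except for Eif3l, none of these genes had been called. The cause of each change was not tested.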
